A study of Mus musculus with 16 samples.

Results

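The genes described here are 35 genes of DNA replication and the S phase of the cell cycle, chosen by their symbols from 16228 gene symbols listed in any library. All 35 were listed in all 16 libraries. They comprise 8 licensing genes (Mcm2 to Mcm7, Cdc6, Cdt1), 3 origin firing genes (Cdc45, Gins1, Gins2), 5 genes of the polymerases and primase (Pola1, Prim1, Prim2, Pole, Pold1), 10 fork factors (Pcna, Rfc1 to Rfc5, Rpa1, Rpa2, Lig1, Fen1), 4 genes of nucleotide supply (Tyms, Rrm1, Rrm2, Dut), 4 chromatin and histone genes (Uhrf1, Chaf1a, Chaf1b, Slbp) and the regulator E2f1.

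RNA was sequenced from fetal brain of mice labelled WT at embryonic day 18.5, under an enriched environment (EE) or standard habitation (SH), an exposure that the series title places before birth. Cortex was represented by 5 EE and 5 SH libraries and hippocampus by 3 EE and 3 SH libraries. Levels are FPKM, fragments scaled to transcript length and to library depth. The labels do not say whether libraries came from separate fetuses, litters or pools, so p-values measure the spread between these libraries, which may be partly technical.

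As background, a cell copies its genome by first loading the ring of Mcm2 to Mcm7 onto origins with the help of Cdc6 and Cdt1, and then turning the ring into an active helicase with Cdc45 and the GINS complex. RPA coats the unwound strands, primase and polymerase alpha lay primers, the RFC complex loads the PCNA clamp, polymerases epsilon and delta extend, and Fen1 and Lig1 join the lagging-strand pieces. Many of these genes are transcribed as cells enter S phase under E2F factors, and in the fetal forebrain their transcripts mark dividing progenitors while neurons have left the cell cycle.

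Promoter windows from RefSeq (build GRCm38.p6, 250 bases before to 50 after the annotated start) were held for 29 of the 35 genes. The E2F letters searched, on both strands and with overlapping matches counted, were TTTCCCGC, TTTCGCGC, TTTGCCGC and TTTGGCGC. They stood in the windows of 11 of 29 genes (37.9%), of 19 of 46 other replication genes (41.3%), of 1 of 19 G2 and mitosis genes (5.3%) and of 458 of 9955 genes tested between the tissues (4.6%). The letters CCAAT, also on both strands, stood in 18 of 29 (62.1%), in 17 of 19 G2 and mitosis genes (89.5%) and in 43.0% of tested genes. Stretches of 6 of the 11 windows with E2F letters are printed below with the letters in capitals, 5′ to 3′ on the gene's strand, to show the letters in licensing, polymerase and chromatin genes: the licensing genes Mcm5 (chr8:75109339-75109398, + strand), Mcm6 (chr1:128359736-128359825, − strand), Mcm7 (chr5:138172014-138172073, − strand) and Cdc6 (chr11:98907991-98908050, + strand), the polymerase gene Pola1 (chrX:93632256-93632315, − strand) and the chromatin gene Uhrf1 (chr17:56304103-56304162, + strand).
Mcm5: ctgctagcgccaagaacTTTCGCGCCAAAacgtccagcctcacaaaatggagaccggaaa
Mcm6: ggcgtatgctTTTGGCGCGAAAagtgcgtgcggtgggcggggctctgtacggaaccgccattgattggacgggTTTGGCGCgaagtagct
Mcm7: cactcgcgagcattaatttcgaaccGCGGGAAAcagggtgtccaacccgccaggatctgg
Cdc6: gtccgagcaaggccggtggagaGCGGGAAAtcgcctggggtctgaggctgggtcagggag
Pola1: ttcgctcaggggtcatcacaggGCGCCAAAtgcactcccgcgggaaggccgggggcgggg
Uhrf1: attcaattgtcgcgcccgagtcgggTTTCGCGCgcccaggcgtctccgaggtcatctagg
The stretches printed are ones that lie before the RefSeq start of their window, the nearest base 31 bases from it in Mcm6 and the farthest 210 bases in Uhrf1. Uhrf1 had 2 windows, and the E2F letters stood only in the one farther downstream. The stretches of Mcm7, Cdc6 and Uhrf1 lie inside the gene spans annotated by GENCODE, whose starts are farther upstream. In Mcm3, Cdt1, Pold1 and Lig1 the letters stand only after the start, as does the second match of Mcm7, and in Rfc3 1 match ends just before it and another begins at it. In Mcm5 and in the first match of Mcm6, matches on both strands overlap, so the capitals run over 12 bases.

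Rpa1 and Mcm2, the genes with the smallest p between the tissues, had none of these E2F letters in their windows. Stretches with CCAAT letters in capitals are shown for contrast, for Rpa1 at chr11:75348391-75348450 (− strand) and for Mcm2 at chr6:88898921-88898980 (− strand).
Rpa1: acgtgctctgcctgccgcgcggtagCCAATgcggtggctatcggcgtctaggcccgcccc
Mcm2: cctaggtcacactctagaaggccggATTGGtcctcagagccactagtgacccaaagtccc
A match is a description of letters and not a shown binding site.

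Levels of the 35 genes differed widely within a library. By mean FPKM over the 16 libraries, Cdc6, the loader of the MCM ring, was lowest at 0.715 (25 to 131 recovered reads per library), followed by Tyms, which makes thymidylate, at 1.91. Pcna, the sliding clamp, was highest at 78.0 (61.4 to 96.7), followed by Rfc2, a small subunit of its loader, at 41.9 (28.3 to 59.98). Mcm7 came next at 34.9, which makes it the most abundant of the 6 MCM transcripts on this per-length scale. Cdc6 was 0.404 to 0.573 FPKM in cortex replicates 1 to 3 and 0.660 to 1.43 in hippocampus, without overlap. Tyms was 1.49 to 2.40 in these cortex libraries and 1.94 to 2.79 in hippocampus, and the ranges overlapped.

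Recovered reads ran from 11743185 to 21362189 per library. Summed FPKM was 510540 in cortex SH replicate 3 and 338885 to 395736 in the other 15 libraries. That library stood apart in the replication genes as well. Relative to the mean of cortex replicates 1 to 3, its deviations correlated with log2 transcript length across the 35 genes at Pearson's r = -0.489. In the other 15 libraries, each set against the mean of its own group of tables, r ran from -0.399 in hippocampus EE replicate 3 to 0.435 in cortex SH replicate 4, so the value is the most negative of a wide range. These are descriptions across genes that are not independent replicates. Dut at 31.4, Rfc2 at 59.98, Rpa2 at 20.5 and Chaf1b at 14.8 FPKM were the highest of the 10 cortex values there, while Pola1 at 0.962 and Pole at 1.01 were the lowest. Results below are given without this library where it moves them.

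**Figure D1:**
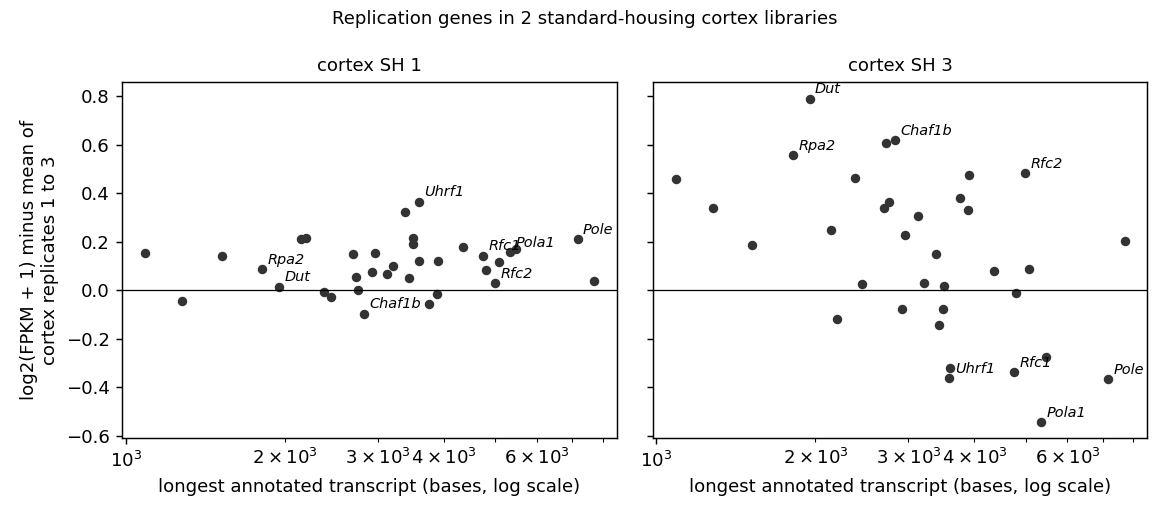
Each point is a replication gene, with its deviation in log2(FPKM + 1) from the mean of cortex replicates 1 to 3 on the y axis and its longest annotated transcript in bases on a log x axis, in cortex SH replicates 1 and 3. In replicate 3 Dut, Rpa2 and Chaf1b lie high and the long transcripts of Pola1 and Pole lie low (r = -0.489), while r is 0.153 in replicate 1. Rfc2 (4995 bases) and Chaf1a (7698 bases) are long as well but lie above the mean in replicate 3.

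The tissues were compared in replicates 1 to 3, 6 hippocampus against 6 cortex libraries, with housing as a term. Replication transcripts were higher in hippocampus: 20 of the 34 tested genes rose in limma at the threshold of 0.05 on Benjamini-Hochberg adjusted p, 0 fell, and the median log2 difference was 0.41. Over all 13138 tested genes 24.6% rose and 10.8% fell (35.4% in either direction), with a median of 0.09. The groups did not overlap, with hippocampus higher, for 15 of the 34 genes (14.9% of all tested genes) and with hippocampus lower for 0 (5.5%). Cdc6 fell below the mean FPKM of 1 that the test required. More cycling cells in hippocampus and more of these transcripts per cell cannot be told apart in such bulk libraries.

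**Figure D2:**
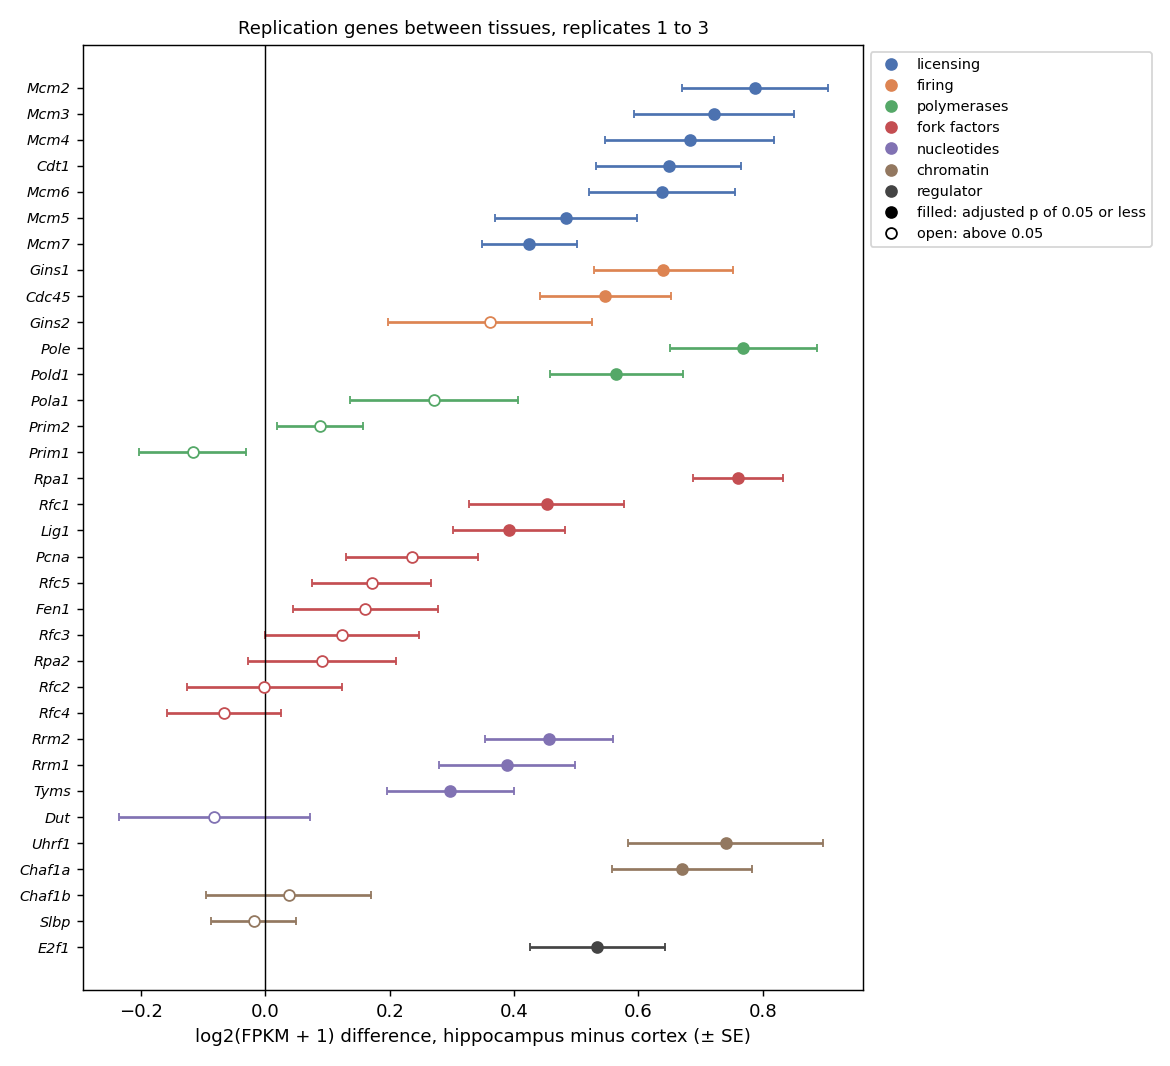
Fitted difference in log2(FPKM + 1), hippocampus minus cortex over replicates 1 to 3, for the 34 tested replication genes by role, with bars of 1 SE. Filled points passed an adjusted p of 0.05; all 7 licensing genes did so (0.42 to 0.79), whereas points of the RFC small subunits, Dut, Slbp and Chaf1b lie near 0.

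All 7 tested licensing genes rose, by 0.42 to 0.79 on the log2 scale. Mcm2 (chromosome 6, 88883474 to 88898780), a subunit of the replicative helicase, ranged from 11.4 to 17.9 FPKM in hippocampus with a median of 14.8 (mean 14.5 ± 2.50, SD, n = 6). In cortex it ranged from 6.84 to 9.30 with a median of 7.78 (7.91 ± 0.968, n = 6). Every hippocampus library lay above every cortex library, a 1.83-fold ratio of means and a log2 difference of 0.79 ± 0.12 (SE, adjusted p = 0.000330, limma).

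Mcm3 (chromosome 1, 20802968 to 20820312), another ring subunit, was 9.67 to 16.2 FPKM in hippocampus (median 13.0) and 6.43 to 8.08 in cortex (median 7.46), again without overlap (difference 0.72 ± 0.13, adjusted p = 0.00106). Cdt1 (chromosome 8, 122568015 to 122573554), which brings the ring to the origin, was 5.81 to 8.69 FPKM (median 6.67) against 3.03 to 5.42 (median 4.02), 1.70-fold by means (0.65 ± 0.12, adjusted p = 0.00114). Mcm7 (chromosome 5, 138164583 to 138172422) was 35.1 to 45.8 FPKM (median 41.8) against 26.6 to 35.9 (median 30.4). The ranges of Mcm7 overlapped only through cortex SH replicate 3, and its difference of 0.42 ± 0.08 (adjusted p = 0.00119) was the smallest of the MCM genes. Mcm4, Mcm5 and Mcm6 rose by 0.68, 0.48 and 0.64.

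Of the firing genes, Gins1 and Cdc45 rose and Gins2 did not pass. Gins1 (chromosome 2, 150905400 to 150931280), a subunit of the complex that activates the helicase, was 6.85 to 8.98 FPKM in hippocampus (median 8.46) and 3.77 to 7.01 in cortex (median 4.66), a difference of 0.64 ± 0.11 (adjusted p = 0.000946). The overlap came from cortex SH replicate 3 at 7.01. Cdc45, the partner of GINS in the helicase, rose by 0.55, and Gins2 differed by 0.36 (adjusted p = 0.106).

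Polymerase genes were split. Pole (chromosome 5, 110286306 to 110337474), the catalytic subunit of the leading-strand polymerase epsilon, was 2.65 to 4.28 FPKM in hippocampus (median 3.52) and 1.01 to 2.003 in cortex (median 1.63), with no overlap. The ratio of means was 2.13 and the log2 difference 0.77 ± 0.12 (adjusted p = 0.000410). Pold1, the catalytic subunit of polymerase delta, rose by 0.56. Pola1, Prim1 and Prim2, the polymerase alpha and primase genes, did not pass, with differences of 0.27, -0.12 and 0.09.

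Among 10 fork factors 3 rose, a share near the 24.6% of all tested genes that rose. Rpa1 (chromosome 11, 75298166 to 75348324), the large subunit of the single-strand binding protein RPA, was 25.4 to 32.9 FPKM in hippocampus (median 30.4) and 15.7 to 18.6 in cortex (median 16.9). It had the smallest p of the 34 genes (0.76 ± 0.07, adjusted p = 1.29e-05) and a ratio of means of 1.74. Rfc1, the large subunit of the clamp loader, rose by 0.45 and the ligase Lig1 by 0.39. Pcna differed by 0.24 (adjusted p = 0.105), the flap nuclease Fen1 by 0.16, Rpa2 by 0.09, and Rfc2, Rfc3, Rfc4 and Rfc5 by -0.00, 0.12, -0.07 and 0.17.

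In nucleotide supply, the ribonucleotide reductase subunits Rrm1 and Rrm2 rose by 0.39 and 0.46 and Tyms by 0.30 (adjusted p = 0.0379), while Dut, which removes dUTP, differed by -0.08. In the chromatin group, Chaf1a (chromosome 17, 56040439 to 56072289), the large subunit of the histone chaperone CAF-1, was 6.40 to 11.2 FPKM in hippocampus (median 9.60) and 4.72 to 6.37 in cortex (median 5.33). Hippocampus EE replicate 3 at 6.40 lay just above cortex SH replicate 3 at 6.37, and the difference was 0.67 ± 0.11 (adjusted p = 0.000752). Uhrf1, which reads hemimethylated DNA behind the fork, rose by 0.74. The second CAF-1 subunit Chaf1b differed by 0.04 and the histone mRNA binding protein gene Slbp by -0.02. The transcription factor gene E2f1 rose by 0.53.

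**Figure D3:**
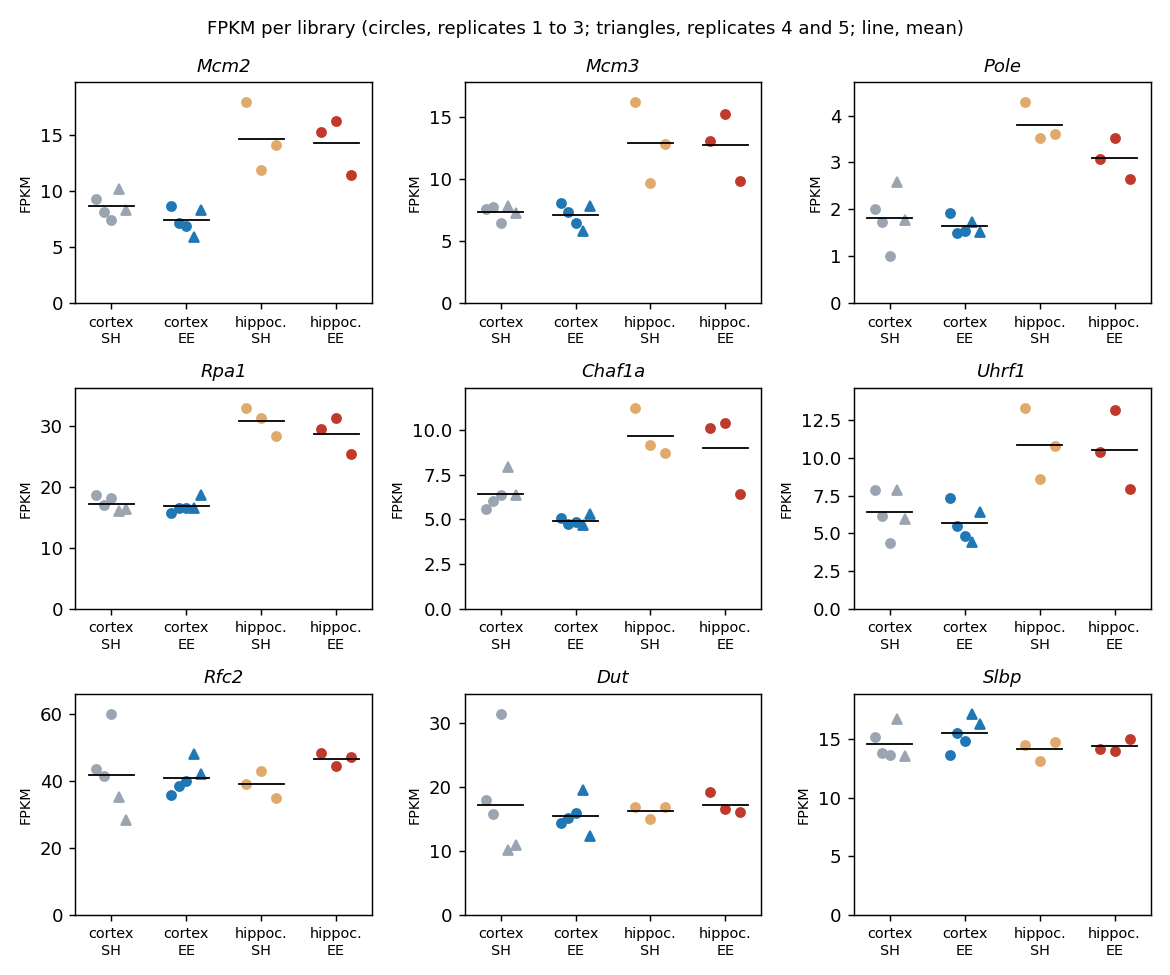
FPKM of 9 replication genes in each of the 16 libraries, by tissue and housing; circles are replicates 1 to 3, triangles cortex replicates 4 and 5, and lines the group means. Mcm2, Mcm3, Pole, Rpa1, Chaf1a and Uhrf1 lie higher in hippocampus, whereas Slbp, Dut and Rfc2 do not, and single cortex SH libraries reach 59.98 for Rfc2 and 31.4 for Dut.

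Because a call for one subunit and none for its partner does not show that they differ, the log2 ratio of FPKM between subunits was set side by side in each library, for 32 pairs of genes from 1 complex each. These ratios cancel any scaling that all genes of a library share. They come from the same libraries as the calls that led to them, so they are given as a description, with no test.

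The ratio of Rpa1 to Rpa2 was 0.83 to 1.27 in hippocampus and -0.18 to 0.63 in cortex on the log2 scale, a difference of means of 0.70 (0.59 without cortex SH replicate 3). That of Chaf1a to Chaf1b was -0.50 to 0.24 in hippocampus and -1.21 to -0.57 in cortex, a difference of 0.72 (0.63 without that library). Within the clamp loader, Rfc4 to Rfc5 was -0.35 to -0.03 in hippocampus and 0.02 to 0.11 in cortex, a difference of -0.26 (-0.27 without it). These 3 ratios, of 32, did not overlap between tissues. For single genes, 14.9% of all tested lacked overlap with hippocampus higher and 5.5% with hippocampus lower. The share among ratios of arbitrary gene pairs was not determined, so the 3 are no result about these complexes.

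Ranges overlapped for all 15 pairs within the MCM ring, for the 3 pairs of polymerase alpha and primase, for Rrm1 to Rrm2 and for Gins1 to Gins2. In each of the 3 pairs without overlap the gene relatively higher in hippocampus had the longer transcript: Rpa1 with 5077 bases against 1813 for Rpa2, Chaf1a with 7698 against 2828 for Chaf1b, and Rfc5 with 3751 against 1279 for Rfc4. Pairs with overlap went both ways. Gins1 to Gins2 differed by 0.33 between tissue means, with 1087 against 3900 bases. Rfc2 to Rfc5 differed by -0.19, with 4995 against 3751. Rfc1 to Rfc4 differed by 0.59, with 4751 against 1279. Across the 34 genes the tissue difference and log2 transcript length had a Pearson's r of 0.355 (0.267 without cortex SH replicate 3), a description over genes that share libraries. The part of transcript length in these ratios was not tested.

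**Figure D4:**
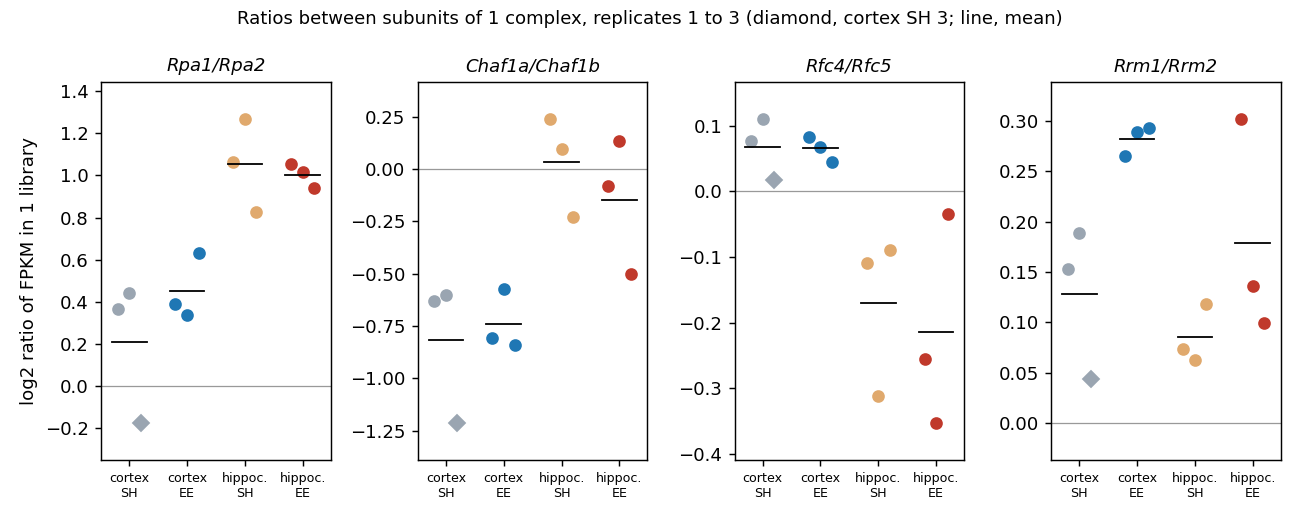
Log2 ratio of FPKM between subunits of the same complex in each library of replicates 1 to 3, by tissue and housing, with lines at group means and a diamond for cortex SH replicate 3. The tissues separate for Rpa1 to Rpa2, Chaf1a to Chaf1b and Rfc4 to Rfc5, while Rrm1 to Rrm2 overlaps.

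A list of 56 other replication genes was also chosen with earlier results of these data known, so it is no independent check. Of 51 tested, 28 rose and 0 fell, with a median log2 difference of 0.35. Among all tested genes 24.6% rose and 10.8% fell. Cdk2, a kinase that starts S phase, differed by 0.83 (adjusted p = 0.000152), Recql4, a helicase of origin firing, by 0.55 (adjusted p = 0.000301), the nuclease gene Dna2 by 0.63 (adjusted p = 0.000382) and Pola2, the accessory subunit of polymerase alpha, by 0.58. By role, 5 of 7 further firing genes, 9 of 12 regulators, 5 of 9 fork genes and 3 of 4 nucleotide genes rose. Of 7 further genes with a role at origins, only Orc2 rose (0.33). Among the others, the origin recognition genes Orc3, Orc4, Orc5 and Orc6 differed by 0.20, 0.12, -0.06 and 0.02, and the Cdt1 inhibitor Gmnn by -0.07. Of 22 G2 and mitosis genes, 21 rose with a median of 0.72, among them Cdc20 and Aurka, both by 0.78. With the 3 hippocampus libraries rich in choroid plexus transcripts left out (described below), 8 of the other replication genes and 10 of the G2 and mitosis genes rose. Calls fell for all genes as well, to 1355 higher and 776 lower, from 3226 and 1423 in the main fit. In the SH libraries alone 0 of the other replication genes and 2 of the G2 and mitosis genes rose, where 299 of all genes rose and 218 fell. Cdk2, Recql4, Dna2, Pola2, Cdc20 and Aurka did not pass there. A mean FPKM of at least 5 left 10 of the other replication genes called, and 2734 genes in all.

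The genes outside these lists whose level followed the mean of the 35 genes most closely over the 12 libraries were Cdca3 (Pearson's r = 0.988), Zdhhc6 (0.987), Tacc3 (0.984), Tmed4 (0.983) and Cdca8 (0.979). These values are a description, and the tissue contrast itself contributes to them.

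Cell type markers moved with the tissue contrast. Radial glia markers rose for 9 of 10 genes (summed FPKM 1340 to 2120 in hippocampus and 1150 to 1890 in cortex) and intermediate progenitor markers for 7 of 7 tested (141 to 199 against 76.8 to 98.1), with Eomes 2.03 and Neurog2 1.88 higher on the log2 scale. Neuron markers fell for 6 of 10 genes (2080 to 3350 against 3700 to 4560), interneuron markers for 8 of 8 (154 to 284 against 557 to 1120) and striatal markers for 7 of 8 (16.1 to 43.9 against 88.2 to 125). Of 8 hippocampus markers 6 rose, Prox1, Zbtb20, Lhx9 and Lef1 among them, and 1 fell. Of 8 neocortex markers 6 fell and 1 rose, so both tissue labels were matched by most of their markers, not all. The part of cell composition in the replication genes was not tested.

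Choroid plexus transcripts were abundant in 3 of the 6 hippocampus libraries, with summed marker FPKM of 5100 in EE replicate 1, 10500 in EE replicate 2 and 17000 in SH replicate 1, against 44.4 to 158 in the other 3. Means of log2(FPKM + 1) over the 35 genes were 3.67, 3.73 and 3.76 in those libraries and 3.47, 3.49 and 3.66 in EE replicate 3, SH replicate 2 and SH replicate 3. Cortex replicates 1 to 3 had means of 3.12 to 3.40, below every hippocampus library. With the 3 choroid-rich libraries left out, 12 replication genes rose, 0 fell and the median was 0.28, with 2131 genes called in all. Rpa1 (0.66), Mcm2 (0.58), Pole (0.70), Chaf1a (0.44), Gins1 (0.50), Mcm3 (0.50), Cdt1 (0.48) and Mcm7 (0.35) were among those that passed.

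The count also depended on housing group and on cortex SH replicate 3. In the 6 EE libraries alone 25 replication genes rose, where 4794 genes were called in all (3156 higher). In the 6 SH libraries alone only Rpa1 did (adjusted p = 0.0317, limma), where 517 were called (299 higher). The medians were 0.40 and 0.33. Without cortex SH replicate 3 the count was 25, where 5746 genes were called in all (3751 higher). Median-of-ratios scaling lowered the median of all genes by 0.10, to -0.01, and that of the replication genes to 0.29, with 19 called and none lower, and the share of called genes that were higher went from 69.4% to 52.1%.

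Genes with E2F letters in their window and genes without were both represented among those that rose: 8 of 10 tested with the letters (median difference 0.52), 9 of 18 without (0.27) and 3 of 6 with no window in the table (0.50). Rfc3 and Pola1 carried the letters and did not pass, and Rpa1, Mcm2 and Chaf1a lacked them and rose. No test was made of these counts.

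Housing was compared in cortex over 5 EE and 5 SH libraries, and replicates 1 to 3 were kept apart from 4 and 5 by a set term. None of the 34 tested replication genes passed the test (0 at an adjusted p of 0.05; 0.00799% of 12519 genes in all, limma). Differences were nonetheless mostly negative, 27 of 34 lower in EE with a median of -0.13, against 54.1% negative and a median of -0.02 over all genes. Unadjusted p was under 0.05 for 6 genes, all lower in EE (5.5% of all genes lower and 1.96% higher): Chaf1a, Fen1, Mcm7, Mcm5, Rfc3 and Cdc45. The licensing genes were all negative (-0.30 to -0.05), as were the 3 firing genes (-0.30 to -0.15), whereas 3 of 5 polymerase genes were positive.

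Chaf1a was 5.09, 4.72, 4.84, 4.70 and 5.27 FPKM in cortex EE replicates 1 to 5 and 5.57, 6.01, 6.37, 7.90 and 6.35 in SH (4.92 ± 0.248 and 6.44 ± 0.880, SD, n = 5 each). Every EE library lay below every SH library, yet the difference of -0.32 ± 0.09 had an adjusted p of 0.424. Fen1 (chromosome 19, 10199132 to 10204169) was 8.39, 8.16, 8.55, 6.66 and 8.80 FPKM in EE and 9.49, 9.92, 13.5, 10.5 and 11.4 in SH, also without overlap (-0.39 ± 0.12, adjusted p = 0.424).

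Mcm7 was 28.3, 26.9, 26.6, 28.5 and 31.0 FPKM in EE and 34.0, 32.4, 35.9, 33.6 and 32.8 in SH, the last of the 3 genes whose cortex groups did not overlap, all with EE lower (2.02% of all genes; 0.607% with EE higher). Its difference was -0.25 ± 0.08 (adjusted p = 0.459). Mcm5 (chromosome 8, 75109569 to 75128439) was 8.38, 8.70, 8.54, 7.41 and 9.98 FPKM in EE and 12.3, 9.61, 10.8, 10.4 and 9.85 in SH, where EE replicate 5 overlapped the SH range (-0.27 ± 0.10, adjusted p = 0.582). Over the alternatives tried, the differences ran from -0.39 to -0.23 for Chaf1a and from -0.28 to -0.18 for Mcm7, and none passed.

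**Figure D5:**
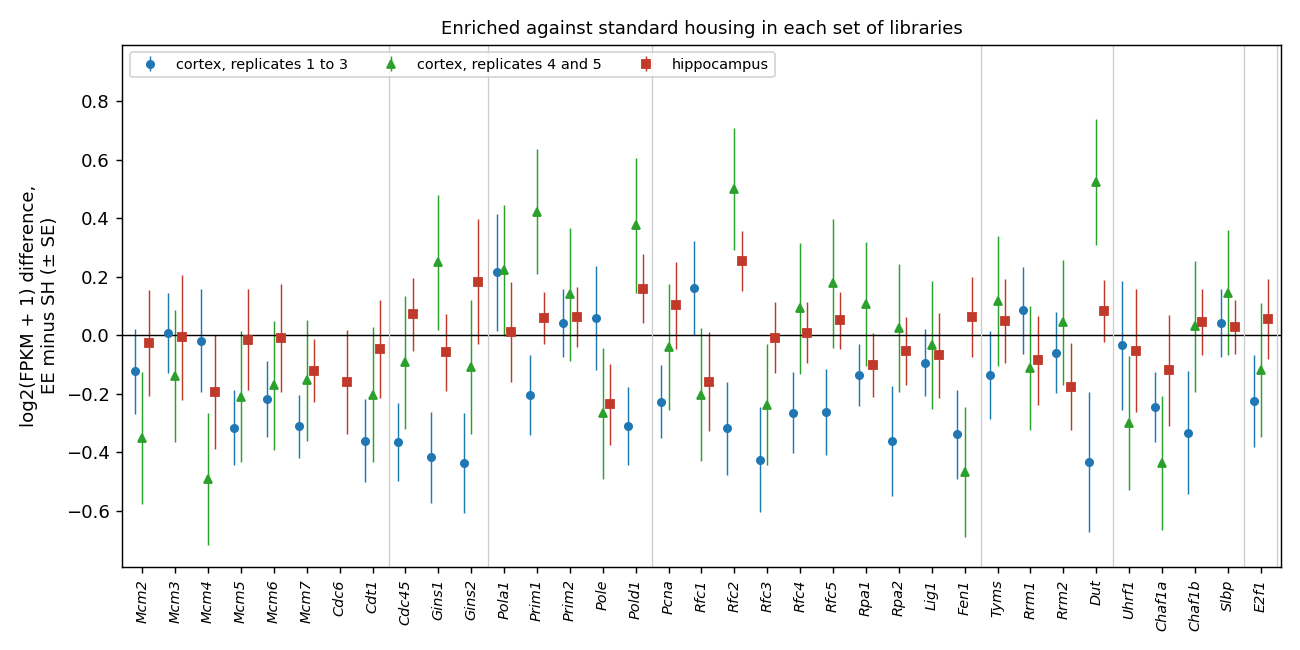
Fitted difference in log2(FPKM + 1), EE minus SH, with bars of 1 SE, for each replication gene in cortex replicates 1 to 3 (circles), cortex replicates 4 and 5 (triangles) and hippocampus (squares). Licensing genes lie at or below 0 in nearly all fits, and Rfc2, Pold1 and Dut lie below 0 in cortex replicates 1 to 3 and above 0 in the other sets; no point passed the threshold.

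The median of the 34 genes was -0.08 without cortex SH replicate 3, -0.07 with the trend on transcript length and GC content removed, and -0.05 with both. The other replication genes had a median of -0.11 (31 of 47 negative), which was 0.0053 among those with a mean FPKM of at least 5; Shmt1, an enzyme of folate metabolism, differed by -0.35 (adjusted p = 0.424) and the thymidine kinase gene Tk1 by -0.45 (adjusted p = 0.467). The G2 and mitosis genes had a median of -0.08 (17 of 22 negative). It ran from -0.011 without SH replicate 1 to -0.18 without SH replicate 3 and was also moved by leaving out EE replicate 1 (-0.13), EE replicate 3 (-0.015), EE replicate 4 (-0.023) or EE replicate 5 (-0.16). Of this list, Aurka differed by -0.45 (adjusted p = 0.321) and Birc5 by -0.38 (adjusted p = 0.507). None of these lists had a gene past the threshold. Intermediate progenitor markers differed by a median of -0.20 (6 of 7 negative), erythroid markers by -0.26 (5 of 5 negative) and radial glia markers by 0.02; their part in the replication genes was not tested.

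The contrast was also made within each set of cortex libraries. In replicates 1 to 3 the median was -0.23 with 27 of 34 negative, and 14 genes had EE below SH without overlap (18.7% of all genes), with 0 called (0% of 12870 genes) and 7 at an unadjusted p under 0.05 (1.91% of all genes higher, 7.37% lower). In replicates 4 and 5 the median was -0.07 with 19 of 34 negative, and 7 genes were lower without overlap (24.9%) and 7 higher (21.7%), with 0 called (3.47% of 12556 genes, 1.68% higher and 1.79% lower) and 5 at an unadjusted p under 0.05 (7.45% higher, 9.68% lower). Mcm7, Fen1 and Chaf1a were lower without overlap in both sets, which their lack of overlap across all cortex libraries already requires. Gins1, Pold1, Rfc2, Rfc5 and Rpa1 were lower without overlap in the first set and higher without overlap in the second.

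Dut, chromosome 2, 125247190 to 125258608, had the smallest p in replicates 4 and 5: 19.6 and 12.4 FPKM in EE against 10.2 and 10.9 in SH, a difference of 0.52 ± 0.22 (adjusted p = 0.161). In replicates 1 to 3 it was 14.3, 15.1 and 15.99 in EE and 17.9, 15.8 and 31.4 in SH. Rfc2 (chromosome 5, 134581366 to 134601805) was 48.1 and 42.2 FPKM in EE against 35.2 and 28.3 in SH in replicates 4 and 5 (0.50 ± 0.21, adjusted p = 0.164), and 35.8, 38.5 and 40.0 against 43.5, 41.6 and 59.98 in replicates 1 to 3. Both genes thus stood higher in EE in one set and mostly lower in the other. With EE replicate 5 left out, which leaves 1 EE library, 4 replication genes passed in the second set, 2 higher and 2 lower, Dut (adjusted p = 0.00109) and Rfc2 (adjusted p = 0.0238) among them. In that fit 1871 of all genes were called, so the 4 are no result about the replication genes. Of the other replication genes, Atad5, which unloads the clamp, fell by 0.79 (adjusted p = 0.0213) and the histone chaperone gene Asf1b fell by 0.74 (adjusted p = 0.0372) in replicates 4 and 5. Both calls were lost without SH replicate 4 or without SH replicate 5, and that of Asf1b also without EE replicate 4. With the length and GC trend removed neither passed (adjusted p = 0.338 and 0.0843), nor did Asf1b with limma-voom (adjusted p = 0.156).

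The difference of the housing effect between the cortex sets was tested by an interaction term, and none of the 34 genes passed (0% of 12519 genes; 5 at an unadjusted p under 0.05, where 11.9% of all genes were higher and 7.58% lower). The smallest p-values belonged to Pold1 (0.69 ± 0.19) and Rfc2 (0.82 ± 0.24), both with an adjusted p of 0.251. Pold1 (chromosome 7, 44532746 to 44548849) was 3.87, 4.60 and 4.52 FPKM in EE against 5.76, 6.08 and 4.99 in SH in replicates 1 to 3, and 6.04 and 5.04 against 4.17 and 3.89 in replicates 4 and 5. Of other genes, the polymerase delta subunit Pold2 differed by 0.85, Tfdp1, a partner of E2F, by -0.53, Ube2c by 0.74 and Birc5 by 0.54, none past the threshold.

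In hippocampus, EE and SH were compared over 3 libraries each. None of the 35 genes passed the test (0% of 13324 genes, limma, with 503 genes at an unadjusted p under 0.05). Differences were negative for 19 of 35 with a median of -0.01, against 52.8% and a median of -0.01 over all genes. All 8 licensing genes were slightly negative (-0.19 to -0.01). Rfc2 alone reached an unadjusted p under 0.05 (0.705% of all genes higher, 3.07% lower). It was 48.3, 44.4 and 47.2 FPKM in EE and 39.2, 43.1 and 34.8 in SH, without overlap (2.59% of all genes higher, 7.33% lower), a difference of 0.25 ± 0.10 with an adjusted p of 0.9996.

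Pole was 3.08, 3.53 and 2.65 FPKM in EE and 4.28, 3.52 and 3.61 in SH, overlapping by EE replicate 2 (-0.24 ± 0.14). Pold1 was 8.57, 8.90 and 7.36 in EE against 7.30, 7.95 and 6.65 in SH (0.16 ± 0.12), and Rrm2, the inducible reductase subunit, 19.2, 22.8 and 19.6 against 27.2, 18.8 and 24.5 (-0.18 ± 0.15). Both pairs of ranges overlapped. The other replication genes were negative for 42 of 53 (median -0.08), with Gins3 at -0.51 and Rnaseh2a at 0.27, and the G2 and mitosis genes for 22 of 22 (median -0.22), with Aurka at -0.35 and Aurkb at -0.33. None of these passed, and 52.8% of all genes were negative (median -0.01). Single libraries moved both medians: for the G2 and mitosis genes to -0.032 when SH replicate 1 was left out, -0.056 for EE replicate 3 and -0.36 for SH replicate 2, and for the other replication genes to -0.042, -0.033 and -0.18 in the same order and -0.14 for EE replicate 2. The choroid-rich libraries fell on both sides of this contrast, 2 in EE and 1 in SH, and without any single library the median of the 35 genes ran from -0.08 to 0.08.

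For the difference of the housing effect between hippocampus and cortex replicates 1 to 3, none of the 34 genes passed the interaction test (0% of 13138 genes; 3 at an unadjusted p under 0.05, where 5.4% of all genes were higher and 2.12% lower). The interaction was positive for 25 of 34 genes with a median of 0.23, against 49.5% and a median of -0.0044 over all genes. It was positive for 21 of 51 other replication genes (median -0.015) and for 7 of 22 G2 and mitosis genes (median -0.11). Rfc2 (0.57 ± 0.20) and Pold1 (0.47 ± 0.18) had the smallest p, both with an adjusted p of 0.494. Of other genes, Rnaseh2a, Pold2, Birc5 and Cenpf had the smallest p in their lists and did not pass either. With limma-voom on recovered reads, 0 replication genes were likewise called in each housing comparison and in both interactions.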

How the data were processed

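For each library the authors deposited FPKM values by gene symbol, in 3 groups of tables with their own gene lists (cortex replicates 1 to 3, 15996 genes; cortex replicates 4 and 5, 13448; hippocampus, 15247), so levels between tissues are set across separately deposited tables. Build mm10 and the tools StringTie 1.3.4d, HISAT2 2.0.4 and cutadapt 1.9 are given in the submitters' processing notes, with no roles. Missing genes were not treated as 0. Whole reads were recovered from the FPKM steps for 99.96 to 99.97% of genes (tolerance 0.003 reads), with a median of 367 to 642 reads per gene. A factor shared by all reads of a gene within a group of tables is lost in this step. It was restored in 1520 cases where another group of tables showed it. Other read counts hold only up to such a factor.

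Two-sided tests used limma 3.58.1 (R 4.3.3; lmFit, eBayes with trend) on log2(FPKM + 1), for genes present in every library compared and averaging 1 FPKM or more, with Benjamini-Hochberg adjustment over all of them and a threshold of 0.05. A fold on this scale understates the change of low genes. The scripts were tested on simulated data. The 35 genes and all lists were chosen with earlier results of these data known. Named were the 8 genes with the smallest p between tissues, 4 in each housing comparison, 2 in cortex replicates 4 and 5 and in each interaction, the 2 lowest and 2 highest levels, and 2 to 4 per other list; others were named to account for all 35. Gene positions and transcript lengths came from GENCODE M21 (mm10), for 93.4% of symbols. Spreadsheet dates stood in place of 22 symbols, which were dropped. Alternatives were other scaling, filters and pseudocounts, removal of a length and GC trend, limma-voom on recovered reads (median-of-ratios library sizes), a replicate block, and leaving out libraries; those added after seeing the data were the length trend together with cortex SH replicate 3 and the choroid-rich libraries (summed marker FPKM above 1000).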

Additional observations from a re-analysis of the deposited data

Results flagged for a closer look

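A total of 3 values lay apart from the others of their group by Dixon's criterion at 95%, out of 70 groups of 5 libraries (35 genes in cortex EE and in cortex SH), where chance flags about 1 in 20. Rfc3 was 24.9 FPKM in cortex EE replicate 4, against 19.6 to 21.1 in the other EE libraries. Chaf1b was 7.02 FPKM in cortex EE replicate 2, against 8.66 to 9.30 in the others. E2f1 was 4.31 FPKM in cortex SH replicate 3, against 3.04 to 3.35 in the others.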

How the results depend on the processing

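Between tissues, leaving out each library gave 19 to 25 replication genes called, a median difference of 0.37 to 0.46 and 3653 to 5746 genes in all. The median was 0.29 with median-of-ratios scaling and 0.29 with the length and GC trend removed. A mean FPKM of at least 5 left 2734 genes called, the SH libraries alone 517 with 1 replication gene, and leaving out the choroid-rich libraries 2131 with 12 replication genes and a median of 0.28; the last 2 settings use 6 and 9 of 12 libraries. Of the 8 named genes, Rpa1 passed in all 24 alternatives and the others failed only with the SH libraries alone, where adjusted p was 0.0506 (Pole) to 0.174 (Mcm7). Among called genes the higher share was 69.4%, 52.0% with limma-voom, 50.2% with the length and GC trend removed and 49.2% when cortex SH replicate 3 was left out too.

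In cortex EE against SH, all genes called numbered 8 with the length and GC trend removed, 5 when cortex SH replicate 3 was left out too, and 0 without the term for the set; leaving out each library gave 1 to 3, with a median of -0.17 to -0.08 for the replication genes, and the median was -0.052 with the trend and that library removed. In replicates 1 to 3 the median was -0.16 with the trend removed and -0.27 to -0.16 on leaving out libraries, with 0 to 12 genes called. In replicates 4 and 5, 19 genes were called with the trend removed and 23 to 1871 on leaving out libraries, with 0 to 4 replication genes and a median of -0.093 to 0.060; an arm then holds a lone library, assumed to vary like the others. The interaction medians with the trend removed were 0.11 between tissues and 0.059 between sets, the latter 0.089 to 0.23 with 0 to 3 genes called on leaving out libraries. With the trend removed, Pold2 (-0.080) and Cenpf (0.024) changed sign in the tissue interaction. The cause of these changes was not tested.

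Replicate numbers were not shown to pair libraries: deviations from group means correlated between same-numbered EE and SH libraries at -0.10, -0.56 and 0.44 in hippocampus, at 0.37, 0.071 and 0.38 in cortex replicates 1 to 3 and at 0.14 in replicates 4 and 5 (each set from its own means), and between tissues at -0.032 to 0.28. Over all 10 cortex libraries the values were 0.33, 0.22 and 0.12 in replicates 1 to 3 and -0.060 and -0.050 in 4 and 5. In cortex replicates 1 to 3, EE replicates 1 and 3 correlated best with the SH library of their own number. EE replicate 2 correlated at 0.075 with SH replicate 1 and at 0.071 with SH replicate 2. Differently numbered libraries of this set correlated at -0.42 to 0.22. A replicate block gave 19 replication genes and 4346 genes between tissues, 769 genes in cortex replicates 4 and 5, and 0 replication genes in every EE against SH fit. Few reads limit Cdc6 (25 to 131 per library).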
